A study of Mus musculus with 56 samples.

Results

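The genes described here are 10 immediate early genes of neuronal activity, measured by RNA sequencing in the anterior hypothalamus of mice under time-restricted feeding. They were taken by name and are Fos, Fosb, Junb, Egr1, Egr2, Egr3, Nr4a1, Npas4, Arc and Homer1. All 10 were present among the 17564 genes of the table and were among the 16194 genes tested. The study asked whether and how daily rhythms of this tissue follow the timing of meals. C57BL/6J female mice were 7 weeks old at the start, acclimated for 7 days, fed on 1 of 2 schedules for 7 days and were 9 weeks old when sampled. All lived in groups under 12 h of light and 12 h of dark on normal chow and were killed by cervical dislocation. Day time-restricted feeding (DRF) gave food from zeitgeber time 0 (ZT0, lights on) to ZT12 (lights off). Night time-restricted feeding (NRF) gave food in the dark period and was the reference. From ZT0 to ZT24, 4 mice of each regimen were taken every 4 h, at 7 times in all, giving 14 groups and 56 mice, each mouse sampled once.

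Immediate early genes are transcribed within minutes of a stimulus, by means of transcription factors that are already present in the cell and are switched on by calcium and kinase signalling. Most encode transcription factors, while others act at the synapse. Their transcripts are short-lived, so their level in a neuron is widely used as a mark of recent activity, and in the hypothalamus Fos in particular has long served to map responses to light, food and stress. The level in a whole piece of tissue is a sum over all of its cells, so more active cells and more RNA per cell cannot be told apart here.

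Promoter sequences, the 250 bases before a RefSeq transcript start on GRCm38.p6, are shown for 3 genes that moved together between mice (Fos, Junb and Nr4a1) and for Npas4, the gene with the smallest spread between mice. Of the 10 genes, 7 had a promoter entry. All sequences run 5′ to 3′ on the gene's own strand, and capitals mark the letters of 3 motifs. These are TGACG or its reverse complement CGTCA, the core of the cyclic AMP response element (CRE), the EGR site GCGNGGGCG on either strand, and the CArG box that binds serum response factor.
Fos, chr12:85473640-85473889, plus strand: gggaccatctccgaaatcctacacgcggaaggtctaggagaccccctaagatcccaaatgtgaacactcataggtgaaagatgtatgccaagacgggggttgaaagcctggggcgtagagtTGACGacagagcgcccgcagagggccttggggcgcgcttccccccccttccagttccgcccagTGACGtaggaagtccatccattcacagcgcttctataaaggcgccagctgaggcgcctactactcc
Junb, chr8:84978749-84978998, minus strand: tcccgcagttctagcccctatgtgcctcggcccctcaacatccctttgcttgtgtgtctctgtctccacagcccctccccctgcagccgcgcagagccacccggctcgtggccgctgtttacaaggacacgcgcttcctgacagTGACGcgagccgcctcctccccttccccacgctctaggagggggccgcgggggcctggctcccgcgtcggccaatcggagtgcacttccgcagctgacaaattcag
Nr4a1, chr15:101266596-101266845, plus strand: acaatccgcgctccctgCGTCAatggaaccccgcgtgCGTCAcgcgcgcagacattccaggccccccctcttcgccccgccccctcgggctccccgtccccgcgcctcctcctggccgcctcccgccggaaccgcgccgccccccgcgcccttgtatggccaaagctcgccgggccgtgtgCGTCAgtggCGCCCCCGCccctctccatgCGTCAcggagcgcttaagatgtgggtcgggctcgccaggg
Npas4, chr19:4989972-4990221, minus strand: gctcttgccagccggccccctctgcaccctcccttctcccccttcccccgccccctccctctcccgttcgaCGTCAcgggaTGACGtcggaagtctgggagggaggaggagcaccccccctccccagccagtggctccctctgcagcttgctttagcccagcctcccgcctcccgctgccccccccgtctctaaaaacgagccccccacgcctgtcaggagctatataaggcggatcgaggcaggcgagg

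The Fos promoter held 2 CRE cores, from -129 to -125 and from -66 to -62 relative to the start. Junb held 1, from -106 to -102. Nr4a1 held 4, all on the opposite strand, and an EGR site from -60 to -52. Npas4 held a core on each strand, 1 from -179 to -175 and 1 from -169 to -165. Among 32817 promoters of the same length, 17.7% held at least 1 CRE core, 3.9% at least 2 and 0.137% at least 4. A CRE core was present in at least 1 entry of all 7 genes with an entry, an EGR site in 2 of them (4.7% of all promoters) and a CArG box in 1, Egr2 (1.47%). The full CRE TGACGTCA (1.55%) and the AP-1 site TGANTCA (6.75%) were in 0 of the 7. The 7 genes had 12 entries between them, whereas the shares count single promoters. Bases farther from the start were not searched, and Egr1, Egr3 and Arc had no entry, so a motif not found here may lie elsewhere. These matches describe letters and were not compared with any binding data.

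Normalized library sizes ranged from 29591262 to 34493349 reads, and their median was 30808272. In DRF ZT16 replicates 3 and 4 the level of a transcript depended on its GC content, with slopes of 0.304 and 0.44 log2 units per 10% of GC, against -0.125 to 0.137 in the other 54 mice. Results of the 10 genes that lose their call without these 2 libraries are also given without them. All 14 markers of the anterior hypothalamus were present, with a summed level of 489 to 1148 CPM (reads scaled to a common library size, not to gene length) per mouse. All 6 markers of the striatum, a forebrain region rostral and lateral to the hypothalamus, were also present. Their sum was 184 to 889 CPM, and its relation to the 10 genes is described with the spread between mice. The mice of a group are separate animals, so the p-values measure the spread between animals. Part of that spread in Fos and Egr1 went with the replicate number, as described at the end, and the main test does not take the number into account.

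Levels per kilobase were taken over the merged exons of all transcripts of a gene, except for Npas4, whose length is described below. On this measure Egr1 was the most abundant of the 10 genes, at 9.42 ± 3.43 CPM per kb (SD, n = 56). Junb followed at 6.54 ± 1.85, Arc at 5.69 ± 1.73, Fos at 5.38 ± 2.31, Nr4a1 at 5.12 ± 1.4 and Npas4 at 4.62 ± 0.539 CPM per kb. The remaining genes were lower, with Homer1 at 2.33 ± 0.426, Egr3 at 1.57 ± 1.11, Egr2 at 0.633 ± 0.184 and Fosb at 0.502 ± 0.148 CPM per kb. The values of Egr1, Junb, Arc, Fos and Nr4a1 overlapped within 1 SD between mice, and the order of the means was not tested. Merged exons can be longer than any single transcript, and those of Homer1 had 11976 bases. Before division by length, Homer1 had the highest median after Egr1, at 27.2 against 42.2 CPM.

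The 10 genes varied more between mice of the same group than most genes did. The SD between mice within a group, on the log2(CPM + 1) scale, had a median of 0.32 over the 10 genes and of 0.11 over the 16194 genes tested. Egr3 had the highest, 0.71, which 45 of all genes exceeded. The SD was 0.53 for Fos, 0.49 for Egr1, 0.37 for Arc, 0.33 for Junb, 0.32 for Nr4a1 and 0.31 for Fosb. These values were larger than those of 97.5% to 99.7% of the genes. Egr2 (0.28, larger than 96.8%) and Homer1 (0.22, larger than 93.0%) were closer to the rest, and Npas4 (0.13, larger than 61.0%) lay among the ordinary genes. Genes of low level vary more, yet Egr3, Fos, Egr1, Arc, Junb, Nr4a1 and Homer1 lay above the 95th percentile of genes of like level.

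**Figure D1:**
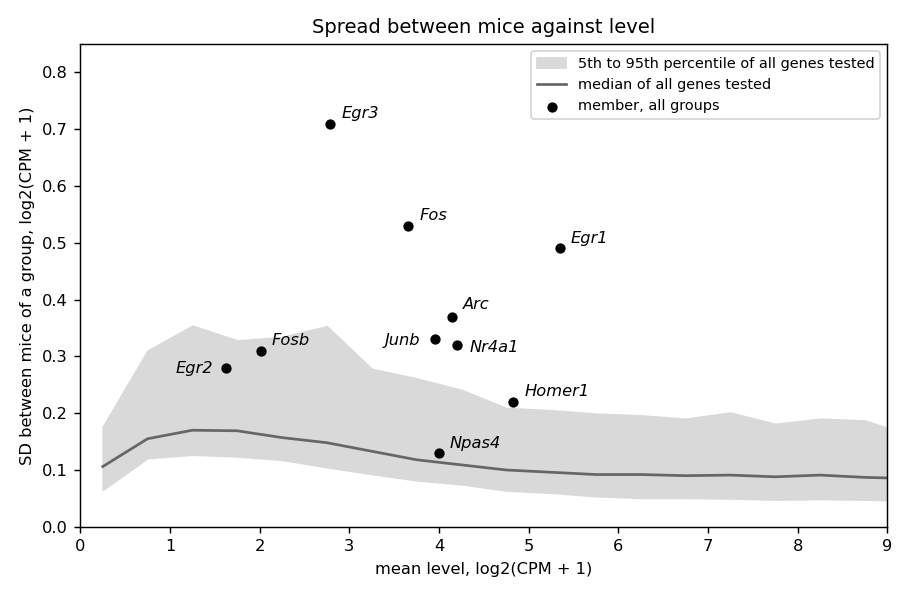
SD between mice of a group on the log2(CPM + 1) scale (vertical) against the mean level over 56 mice (horizontal) for the 10 genes (points), with the median (line) and the 5th to 95th percentile (grey) of the 16194 genes tested. Egr3, at 0.71, lies farthest above the band of genes of like level, and Npas4, at 0.13, lies inside it.

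Differences between the 14 groups accounted for 14.4% (Arc) to 47.6% (Npas4) of the variation of a gene between the 56 mice. Ordered by mean level, the group at the top exceeded the group at the bottom by 1.37 log2 units for Fos, 1.15 for Egr3, 0.85 for Egr1 and 0.76 for Junb. The range was 0.71 for Fosb, 0.62 for Nr4a1, 0.57 for Homer1, 0.55 for Arc, 0.39 for Egr2 and 0.36 for Npas4. In none of the 10 genes did a group differ from its neighbour in this order by more than the SD between mice, over 13 neighbouring pairs per gene. Sorting 14 means splits their range into small steps, so this count cannot tell whether groups differed.

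Fos (chromosome 12, 85473890 to 85477273, plus strand, GRCm38) encodes the c-Fos subunit of the AP-1 transcription factor. By group means its transcript was highest at ZT0 in both regimens and lowest at ZT8 in DRF and at ZT4 in NRF. In DRF at ZT0 the 4 mice had 9.0, 20.9, 27.6 and 19.5 CPM (mean 19.3 ± 7.7, SD). At ZT4 they had 10.1, 7.36, 11.9 and 11.2 CPM, and at ZT8 4.06, 6.09, 6.33 and 9.82 CPM. The 4 mice of ZT8 thus lay below 3 of the 4 mice of ZT0. From ZT12 the level was higher again, with 6.14, 10.3, 10.5 and 17.1 CPM at ZT12 and 6.28, 14.2, 18.9 and 14.6 CPM at ZT16. At ZT20 it was 12.2, 13.4, 17.9 and 15 CPM, and all 4 of these mice exceeded all 4 of ZT8. The mice of ZT24 fell into a lower and a higher pair, at 5.28 and 7.17 CPM and at 14.5 and 16.8 CPM.

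In NRF, Fos was 11.9, 13.8, 22.5 and 22 CPM at ZT0 and 6.87, 6.54, 8.22 and 13.6 CPM at ZT4. The spread was wide at ZT8, with 4.59, 8.86, 16.7 and 20.9 CPM, a 4.55-fold range in which 2 mice were within the range of DRF ZT8 and 2 within that of NRF ZT0. The values were 7.66, 13.2, 19.1 and 21.1 CPM at ZT12, 9.41, 13, 16.2 and 20.7 CPM at ZT16 and 8.04, 10.9, 16.8 and 14.9 CPM at ZT20. At ZT24 the 4 mice were close together, at 8.26, 9.53, 8.53 and 10.7 CPM, and all lay below the 4 mice of NRF ZT0.

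The difference of Fos between dark (ZT16 and ZT20) and light (ZT4 and ZT8) was 0.55 ± 0.18 log2 units (SE), or 1.47-fold, over both regimens (adjusted p = 0.025 by limma). It was the 1 gene called of the 10, against 17.9% of all genes. In DRF, 7 of the 8 mice sampled in the dark lay above all 8 sampled in the light, at 12.2 to 18.9 CPM against 4.06 to 11.9 CPM, with the other at 6.28 CPM, and the difference was 0.70 ± 0.25 (adjusted p = 0.124). In NRF the ranges overlapped, at 8.04 to 20.7 CPM against 4.59 to 20.9 CPM, and the difference was 0.41 ± 0.25 (adjusted p = 0.236). Within DRF 0 of the 10 genes were called for dark against light (3.31% of all genes), and Fos and Fosb had an unadjusted p under 0.05. Without DRF ZT16 replicates 3 and 4 the difference over both regimens was 0.46 (adjusted p = 0.058). It was 0.48 (adjusted p = 0.216) without the mice numbered 2 and 0.50 (adjusted p = 0.138) without those numbered 3.

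Fosb (chromosome 7, 19302696 to 19310051, minus strand) encodes FosB, a second partner of Jun proteins, whose truncated form builds up under repeated stimulation. The deposited values do not separate its isoforms. Fosb had 45 to 197 reads per mouse, and its level per kb overlapped that of Egr2 within 1 SD. Its lowest group was DRF ZT8, at 2.7, 1.46, 1.92 and 2.68 CPM, and its highest was NRF ZT0, at 3.28, 3.37, 5.65 and 4.55 CPM. The highest mouse was DRF ZT12 replicate 4, at 6.15 CPM, while replicates 1 and 2 of that group had 1.83 and 1.8 CPM. Fosb in the dark against the light differed by 0.23 ± 0.10 log2 units (adjusted p = 0.122).

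Junb (chromosome 8, 84974484 to 84978718, minus strand) encodes JunB, which pairs with Fos proteins in AP-1. By group means it was highest at ZT0 in DRF, with 15.2, 22, 21.5 and 18.4 CPM. In NRF the means of ZT0 (17.8 CPM) and ZT8 (17.9 CPM) were close, and the mice of ZT0 had 12.6, 17.5, 23.5 and 17.7 CPM. It was lowest in NRF at ZT24, with 9.64, 11.4, 11.1 and 11.4 CPM, and in DRF at ZT24, with 9.29, 15.6, 8.99 and 13.8 CPM. All 4 NRF mice of ZT24 were below all 4 of ZT0. Dark and light differed by 0.11 ± 0.11 log2 units (adjusted p = 0.533). At DRF ZT12 the mice spanned 11.6 to 29.3 CPM, the widest range of this gene.

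ZT0 and ZT24 both fall at lights on, and the mice of the 2 times were different animals. In NRF, Fos, Junb, Egr1 and Nr4a1 were lower in all 4 mice of ZT24 than in all 4 of ZT0. This was 4 of the 10 genes, and 21.5% of all genes did not overlap between these groups. Mean levels were 17.5 and 9.26 CPM for Fos, 17.8 and 10.9 CPM for Junb, 48.6 and 29.0 CPM for Egr1 and 21.3 and 14.1 CPM for Nr4a1 at ZT0 and ZT24. In DRF the groups overlapped in all 10 genes (9.47% of all genes did not overlap), though Fos moved by a like amount, from 19.3 to 10.9 CPM. These pairs of groups were described after their values had been seen and were given no test.

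**Figure D2:**
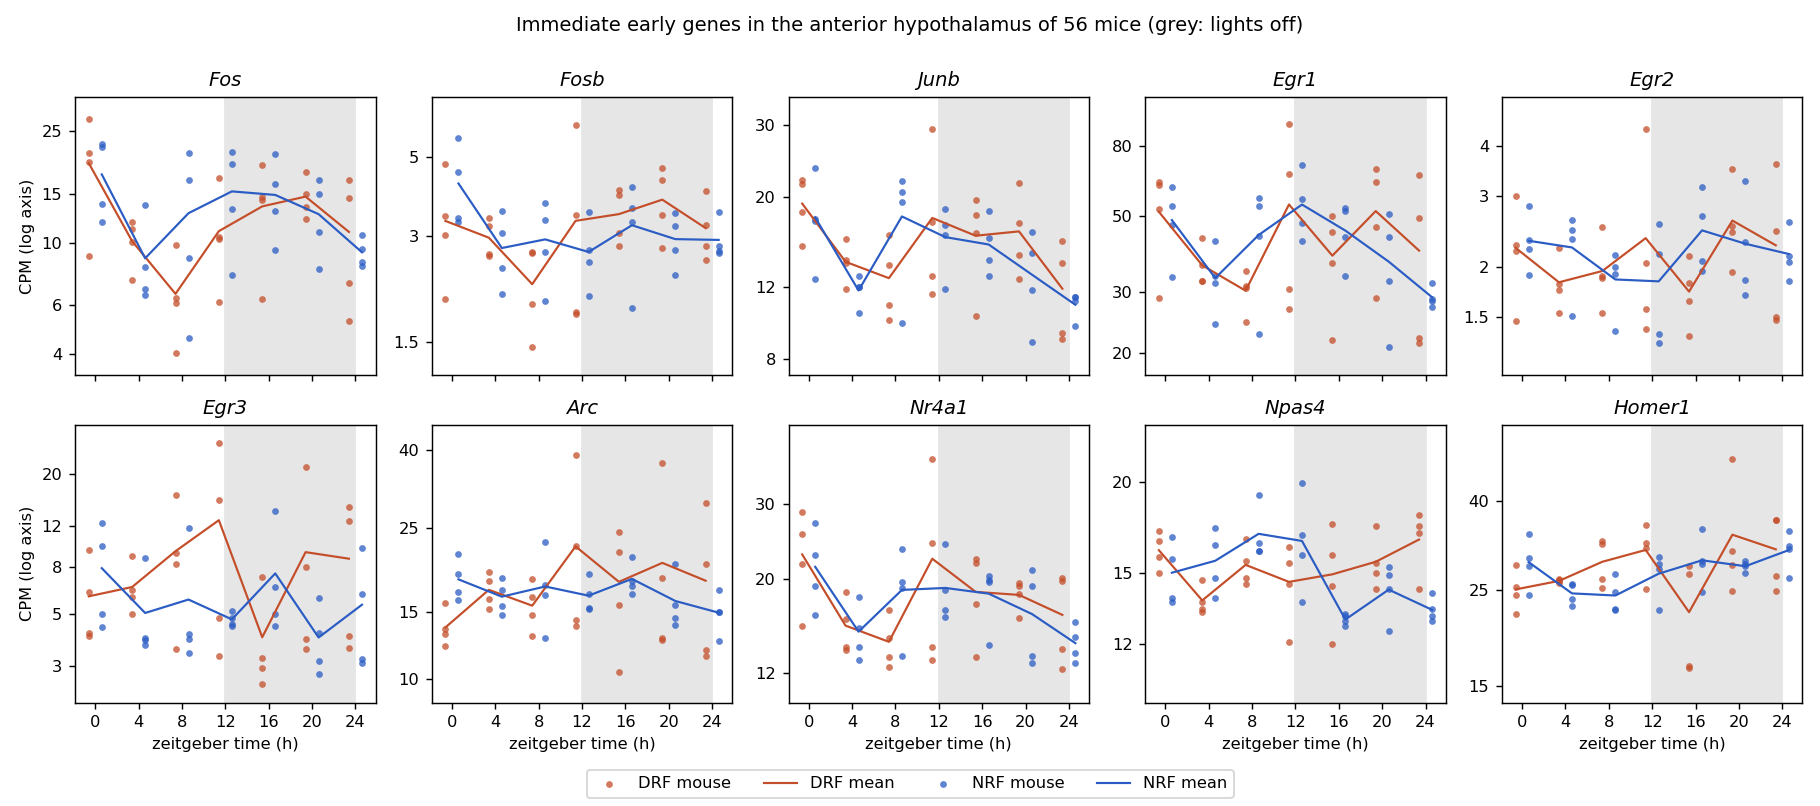
Level of the 10 genes in CPM (log axis) in each of 56 mice against zeitgeber time in hours, with DRF in orange, NRF in blue, lines through the group means and the dark period in grey. DRF points are drawn slightly before and NRF points slightly after their true time. Fos falls from ZT0 to ZT8 in DRF, from a mean of 19.3 to 6.57 CPM. Single mice or pairs of mice of DRF ZT12, ZT20 and ZT24 stand out in Egr3 and Arc.

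Egr1, Egr2 and Egr3 encode zinc finger transcription factors that bind a common GC-rich site and relay the first wave of induction to later genes. Egr1 (chromosome 18, 34859823 to 34864984, plus strand) was the best measured, with 632 to 2954 reads per mouse. In DRF its 4 mice had 28.9, 61.3, 62.8 and 52.4 CPM at ZT0 and 26.8, 30.7, 66.0 and 92.2 CPM at ZT12. They had 28.8, 68.3, 62.8 and 46.5 CPM at ZT20 and 21.4, 65.7, 22.1 and 49.2 CPM at ZT24. In each of these groups the mice spread over a range of 2.17-fold or more, whereas DRF ZT4 (32.3 to 43.0 CPM) and ZT8 (24.5 to 34.5 CPM) were narrow. In NRF Egr1 was 42.1, 47.6, 55.8 and 70.1 CPM at ZT12, its highest group, and 28.3, 27.1, 28.6 and 31.9 CPM at ZT24, its lowest. These 2 groups did not overlap, but they were picked as the extremes of this gene in NRF. Time of day in NRF did not call Egr1 (F = 1.76, adjusted p = 0.236 by limma). The SD of Egr1 was 0.57 in DRF and 0.39 in NRF.

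Egr2 (chromosome 10, 67535475 to 67542188, plus strand) had 39.4 to 141 reads per mouse. Its reads came in fractions in nearly every mouse, for a reason that was not tested, and its values are uncertain. Group means ran from 1.73 ± 0.333 CPM in DRF ZT16 to 2.6 ± 0.656 CPM in DRF ZT20 (SD, n = 4). The highest mice were DRF ZT12 replicate 4 at 4.41 CPM, DRF ZT24 replicate 2 at 3.61 CPM and DRF ZT20 replicate 2 at 3.51 CPM. The group of the first had 1.57, 1.4 and 2.04 CPM in its other mice.

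Egr3 (chromosome 14, 70077203 to 70082614, plus strand) had the widest range of the 10, from 2.51 to 27.0 CPM, or 10.8-fold. Its high values were those of single mice or of pairs. In DRF they were 16.3 CPM at ZT8 against 3.56, 8.25 and 9.17 CPM in the other 3 mice, and 21.5 CPM at ZT20 against 3.92, 7.96 and 3.56 CPM. At DRF ZT12 a pair at 15.5 and 27.0 CPM stood above a pair at 4.82 and 3.31 CPM. At DRF ZT24 a pair at 14.4 and 12.6 CPM stood above a pair at 3.58 and 4.04 CPM. In NRF 1 mouse was well above the other 3 at ZT4 (8.73 CPM against 3.69 to 3.95 CPM), ZT8 (11.7 against 3.4 to 4.1) and ZT16 (13.9 against 4.44 to 6.57). The 4 mice of NRF ZT12, at 5.19, 4.54, 4.45 and 4.84 CPM, were close together. DRF and NRF differed at ZT12 by 0.85 ± 0.48 log2 units (adjusted p = 0.379).

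Nr4a1 (chromosome 15, 101254269 to 101274795, plus strand) encodes the orphan nuclear receptor Nur77. In DRF it was 15.5, 25.4, 28.6 and 21.7 CPM at ZT0 and 14.5, 12.4, 13.1 and 16.9 CPM at ZT8. In NRF it was 16.4, 19.2, 27.0 and 22.7 CPM at ZT0 and 13.4, 14.6, 15.8 and 12.7 CPM at ZT24. The highest mouse was again DRF ZT12 replicate 4, at 38.2 CPM, against 12.9, 13.8 and 24.2 CPM in its group. No main comparison of regimens, of light and dark or of times called Nr4a1.

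Npas4 (chromosome 19, 4984355 to 4990316, minus strand) encodes a transcription factor that responds to calcium entry in neurons and helps set their inhibitory inputs. It had 370 to 607 reads per mouse and ran from 12.0 to 19.9 CPM, a 1.66-fold range over all 56 mice. Its reads were whole in 50 of 56 mice, and the length that resolved them was 3277 bases in place of the annotated 4136. CPM and log2 values were recovered with this length. The size of its levels, folds, differences and SD is therefore uncertain, as is its level per kb. Whether its reads are shared with other genes was not tested, so its values, and the calls below, may not be those of Npas4 alone. In NRF it was 17.3, 14.8, 13.9 and 16.4 CPM at ZT4, 16.1, 19.2, 16.1 and 16.5 CPM at ZT8 and 13.7, 19.9, 16.9 and 15.9 CPM at ZT12. The 4 mice of NRF ZT16 had 12.7, 13.1, 13.2 and 12.9 CPM, below all 12 mice of those 3 groups. At ZT20 the values were 12.5, 14.9, 15.3 and 14.3 CPM, at ZT24 13.4, 12.9, 14.1 and 13.1 CPM and at ZT0 13.9, 16.8, 15.7 and 13.7 CPM.

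In NRF, Npas4 was lower in the dark than in the light by 0.24 ± 0.06 log2 units, or 0.848-fold (adjusted p = 0.005 by limma). Of the 8 mice sampled in the light, 6 lay above all 8 sampled in the dark. Npas4 was the 1 gene of the 10 called for dark against light in NRF, where 26.3% of all genes were called, and the call held under all 15 alternatives (adjusted p from 0.001 to 0.042). In DRF the difference was 0.06 ± 0.06 (adjusted p = 0.695). A 24-h cosine fitted to NRF had an amplitude of 0.15 log2 units and a peak at 7.8 h (adjusted p = 0.007). This cosine called 1 of the 10 genes in NRF (27.7% of all genes) and 0 in DRF (4.03%). In DRF the amplitude of Npas4 was 0.07 (adjusted p = 0.443).

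In DRF, Npas4 was 13.7, 13.3, 13.4 and 14.7 CPM at ZT4, its lowest group there, and 17.0, 17.4, 14.3 and 18 CPM at ZT24, its highest. The time courses of the 2 regimens differed by the test of regimen by time (F = 4.19, adjusted p = 0.023). That test called 1 of the 10 genes and 13.0% of all genes. Fitted cosines also differed between regimens (F = 7.78, adjusted p = 0.019), again for 1 of the 10 genes and 10.9% of all. With food access Npas4 was lower than without it by 0.15 ± 0.05 log2 units, or 0.903-fold (adjusted p = 0.031), 1 of 10 genes against 10.2% of all. The last difference was -0.11 (adjusted p = 0.185) without the 2 DRF ZT16 libraries that stand apart, and its adjusted p was 0.075 to 0.164 without the mice numbered 2, 3 or 4. Without those numbers the adjusted p of regimen by time was 0.124 to 0.19, and that of the cosines was 0.057 to 0.114 without any 1 of the 4 numbers.

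Arc (chromosome 15, 74669083 to 74672570, minus strand) encodes a protein of the dendrite that takes part in removing AMPA receptors from synapses. In NRF its 28 mice stayed between 12.6 and 23.0 CPM. In DRF they ran from 10.4 to 38.9 CPM, with 13.8, 14.3, 22.4 and 38.9 CPM at ZT12 and 12.7, 37.0, 18.4 and 12.8 CPM at ZT20. At DRF ZT24 they were 11.5, 29.1, 11.9 and 20.1 CPM, so that in each of these groups 1 mouse stood far above the lowest. The SD was 0.48 in DRF and 0.20 in NRF. At ZT0 the regimens did not overlap, with 12.2, 15.9, 13.5 and 13.1 CPM in DRF and 16.1, 21.3, 18.9 and 16.9 CPM in NRF. That difference was -0.39 ± 0.25 log2 units (DRF minus NRF, adjusted p = 0.433 by limma). When only the 8 mice of ZT0 were fitted, it was called, as were 828 of the 16194 genes tested.

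Homer1 (chromosome 13, 93299635 to 93405129, plus strand) encodes a scaffold of the postsynaptic density, and activity induces its short form Homer1a. The value per gene adds the long and the short forms, so the short form was not measured here. At DRF ZT4 the mice had 25.9, 26.2, 26.3 and 26.4 CPM, above the 25.8, 22.9, 25.6 and 23.8 CPM of NRF ZT4. At ZT16 DRF replicates 1 and 2 had 27.2 and 28.4 CPM and replicates 3 and 4, the libraries that stand apart, 16.5 and 16.7 CPM. In NRF at ZT16 the values were 24.7, 34.5, 28.6 and 29.1 CPM. The highest mouse of the series was DRF ZT20 replicate 2, at 49.9 CPM against 24.8, 30.7 and 28.5 CPM in its group.

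Between the regimens, Homer1 at ZT16 was the single called difference of the 10 genes in 70 contrasts (1.43%). It was -0.42 ± 0.15 log2 units in DRF minus NRF, or 0.749-fold (adjusted p = 0.041 by limma). Without the 2 libraries that stand apart it was -0.06 (adjusted p = 0.93), and with the library trends removed -0.08 (adjusted p = 0.685). When only the 8 mice of ZT16 were fitted, its adjusted p was 0.366. The 1 call at ZT16 stood beside 19.9% of all genes called there, or 3227 genes, and without the 2 libraries 33 genes were called (0.204%). At the other times 0 of 10 were called, beside 4.43% of all genes at ZT0, 3.90% at ZT4, 0.173% at ZT8, 1.49% at ZT12, 1.14% at ZT20 and 0.284% at ZT24. An unadjusted p under 0.05 was reached in 3 contrasts. They were Homer1 at ZT16, Npas4 at ZT24 (0.30 ± 0.09, adjusted p = 0.201) and Fos at ZT8 (-0.73 ± 0.36, adjusted p = 0.373).

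DRF and NRF mice did not overlap in Arc at ZT0 (14.4% of all genes did not), Homer1 at ZT4 (14%) and Npas4 at ZT24 (7.71%). All 10 genes overlapped at ZT8, ZT12, ZT16 and ZT20, where 9.65%, 6.29%, 7.90% and 8.19% of all genes did not. Over all times, DRF and NRF differed in 0 of the 10 genes by limma, with 0 at an unadjusted p under 0.05, while 10.4% of all genes were called. The estimates ran from -0.10 ± 0.14 for Fos to 0.29 ± 0.18 for Egr3 (adjusted p = 0.323), the smallest adjusted p of the 10. With these SEs a difference of Egr3 or Fos between regimens would have had to be several times larger than one of Npas4 (0.03 ± 0.03) to be detectable.

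**Figure D3:**
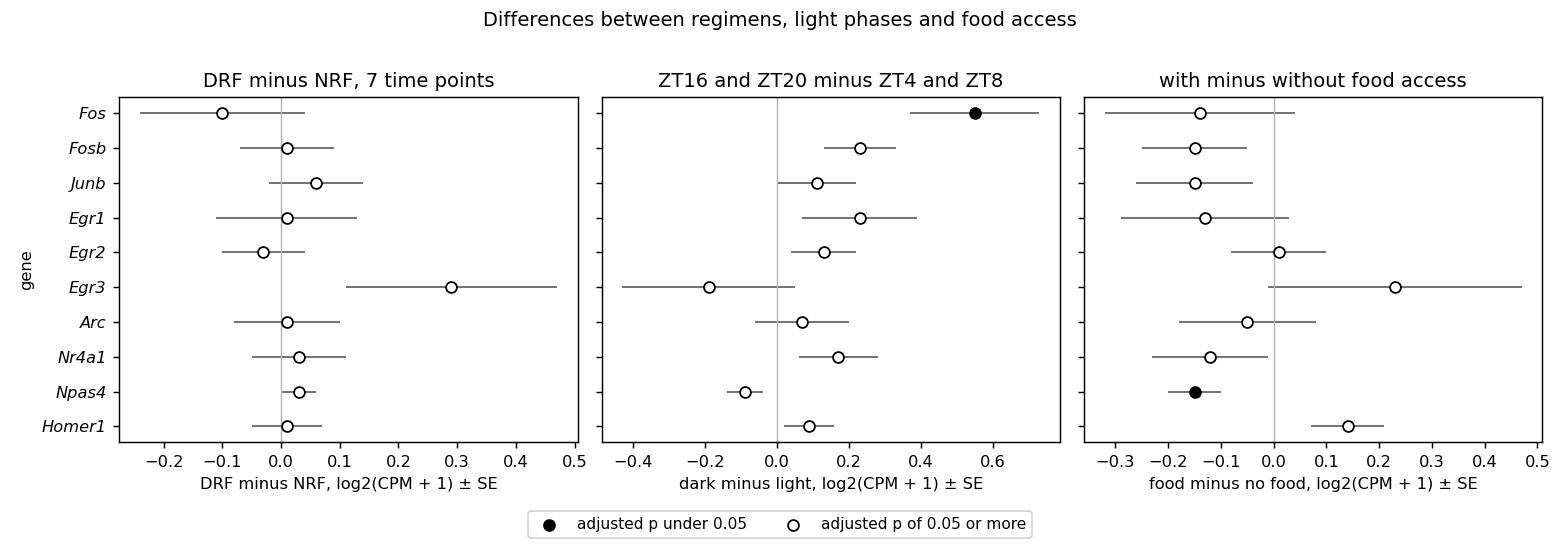
Differences of the 10 genes on the log2(CPM + 1) scale with their SE from limma, for DRF minus NRF over 7 times, dark minus light, and food access minus none (horizontal axes), by gene (vertical). Filled points had an adjusted p under 0.05, and they are Fos in the dark (0.55) and Npas4 with food (-0.15).

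The limma test of time of day called 2 of the 10 genes in DRF (32.4% of all genes). They were Fos (F = 3.01, adjusted p = 0.046) and Homer1 (F = 3.6, adjusted p = 0.023). The test took ZT0 and ZT24 as separate times, though both fall at lights on. A difference between these times can thus add to a call. In DRF the mean of Fos was 19.3 CPM at ZT0 and 10.9 CPM at ZT24. The 24-h cosine, which gives both times the same value, called neither gene in DRF. Without the 2 libraries that stand apart both genes lost the call of time of day, with F = 3.02 (adjusted p = 0.074) for Fos and F = 1.91 (adjusted p = 0.231) for Homer1. In that fit 14.8% of all genes were called. In NRF the test of time of day called 1 of the 10 (29.6% of all genes), Npas4 (adjusted p = 0.008), and Junb had an adjusted p of 0.082. The call of Npas4 was lost without the mice numbered 2, 3 or 4 (adjusted p from 0.064 to 0.096). Rhythm was also tested by JTK_CYCLE together with Lomb-Scargle, over periods from 20 to 28 h, and this called 0 of the 10 genes in either regimen. It called 0.806% of all genes in DRF and 27.5% in NRF. At an unadjusted p under 0.05 were Fos in DRF (adjusted p = 0.827 by the rhythm test) and Homer1 in NRF (adjusted p = 0.072).

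The SD between mice was larger in DRF than in NRF for 9 of the 10 genes, and for 79.3% of all genes. A test of the distances of mice from their group mean called 0 of the 10 genes, with or without the 2 libraries that stand apart, and 0.0741% of all. Arc had the smallest adjusted p, 0.081, with a mean distance larger by 0.22 ± 0.06 log2 units in DRF, and Homer1 followed (0.10 ± 0.04, adjusted p = 0.102). For Egr3 the difference was 0.22 ± 0.13 (adjusted p = 0.293), and for Fos, with an SD of 0.53 in both regimens, it was -0.03 ± 0.10 (adjusted p = 0.892).

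Within groups most pairs of the 10 genes moved together from mouse to mouse. After the group means were taken out, 38 of 45 pairs correlated over the 56 mice (permutation test with 100000 draws, two-sided, Benjamini-Hochberg adjusted over the 45 pairs), all with a positive r. By Spearman's rho 37 pairs did. Pearson's r ran from 0.01 to 0.90, with a median of 0.55. How often pairs of other genes correlated in these mice was not measured, so the count has no background beside it. The strongest pairs were Egr1 with Nr4a1 (r = 0.90, rho = 0.89), Egr1 with Junb (r = 0.88) and Junb with Nr4a1 (r = 0.86), and Egr1 with Fos had r = 0.83. For each of these the adjusted permutation p was 3.5e-05, from the smallest p these permutations can give. Without the 2 mice farthest from the median, r of Fos and Egr1 was 0.80. With the replicate number taken out, r of Fos and Egr1 was 0.64. The permutations shuffled the mice of a group irrespective of their number.

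A second close pair was Egr3 with Arc (r = 0.83, rho = 0.80, and r = 0.77 without the 2 farthest mice). Egr3 did not follow Fos (r = 0.25), and Fos did not follow Npas4 (r = 0.29) or Homer1 (r = 0.10) by the same test. The other pairs that were not called were Junb with Homer1 (r = 0.30), Nr4a1 with Homer1 (r = 0.22), Egr2 with Npas4 (r = 0.15) and Npas4 with Homer1 (r = 0.01). A pair that misses the threshold is not shown to be unrelated. DRF ZT12 replicate 4 was the highest mouse of the series in 7 of the 10 genes, namely Fosb, Junb, Egr1, Egr2, Egr3, Arc and Nr4a1, but had 17.1 CPM of Fos, below the highest mice of that gene.

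**Figure D4:**
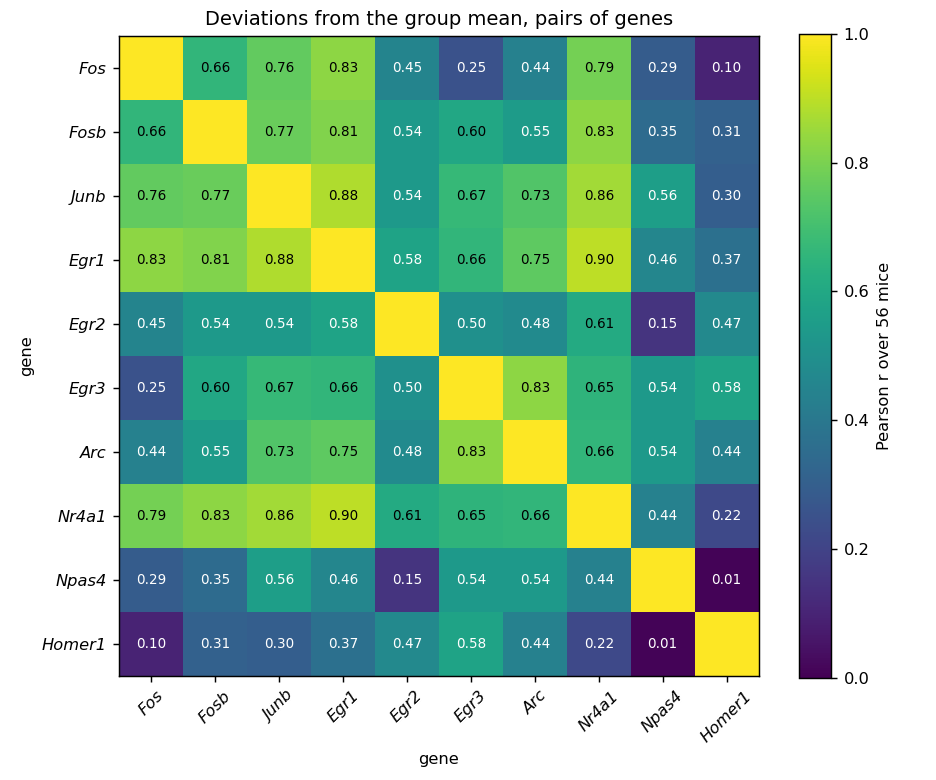
Pearson's r over 56 mice, by colour and number, between the deviations of each pair of the 10 genes (both axes) from their group means in log2(CPM + 1). Fos, Fosb, Junb, Egr1 and Nr4a1 form a block with r of 0.66 to 0.90, and Npas4 with Homer1 is lowest at 0.01.

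Markers of the striatum, whose neurons are known to express Arc and Egr genes, moved with some of the 10 genes. The list was Ppp1r1b, Drd1, Drd2, Adora2a, Rgs9 and Gng7, 6 of 6 were present and none was at 0 in all mice. Their summed level was 184 to 889 CPM, with a median of 223. The mice with the highest sums were DRF ZT12 replicates 4 (889 CPM) and 3 (650 CPM), DRF ZT8 replicate 1 (553 CPM), NRF ZT8 replicate 2 (493 CPM) and DRF ZT20 replicate 2 (472 CPM). These are the mice named above for the highest Egr3 in their groups, or for the upper pair of DRF ZT12. By group, the sum spanned 210 to 889 CPM in DRF ZT12, 205 to 553 in DRF ZT8 and 217 to 472 in DRF ZT20. It spanned 184 to 231 CPM in NRF ZT12 and 195 to 204 CPM in NRF ZT20, where Egr3 stayed between 2.76 and 5.85 CPM. In the other 9 groups the lowest mouse had 194 to 213 CPM and the highest 283 to 493 CPM.

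Over the 56 mice, with group means taken out, the striatum sum correlated with Egr3 at r = 0.89 (rho = 0.84, and 0.87 without the 2 farthest mice, adjusted permutation p = 5.2e-04 over 130 relations). It correlated with Arc at r = 0.67 (rho = 0.61, and 0.59 without the 2 mice), with Junb at 0.52, with Homer1 at 0.48 and with Npas4 at 0.46. Fosb (r = 0.5), Nr4a1 (0.49) and Egr1 (0.45) had values of like size but were not called (adjusted permutation p = 0.067 each). For Egr2 r was 0.34 (adjusted permutation p = 0.19), and for Fos it was 0.04 (adjusted permutation p = 0.94). Each of the 6 striatum genes alone had r of 0.74 to 0.92 with Egr3 and of -0.01 to 0.09 with Fos. DRF ZT24 replicate 2 was an exception, with high Egr3 (14.4 CPM), Arc (29.1 CPM) and Egr1 (65.7 CPM) at a striatum sum of 225 CPM. Its cortex sum was 167 CPM, where the 56 mice ran from 100 to 172, and its anterior hypothalamic sum was 510 CPM, where they ran from 489 to 1148. The part of the dissection in these values was not tested. With the striatum sum as a covariate, chosen after the data had been seen, time of day in DRF called 5 of the 10 genes, Fos, Fosb, Junb, Nr4a1 and Homer1. That fit also called 6239 of the 16194 genes tested.

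**Figure D5:**
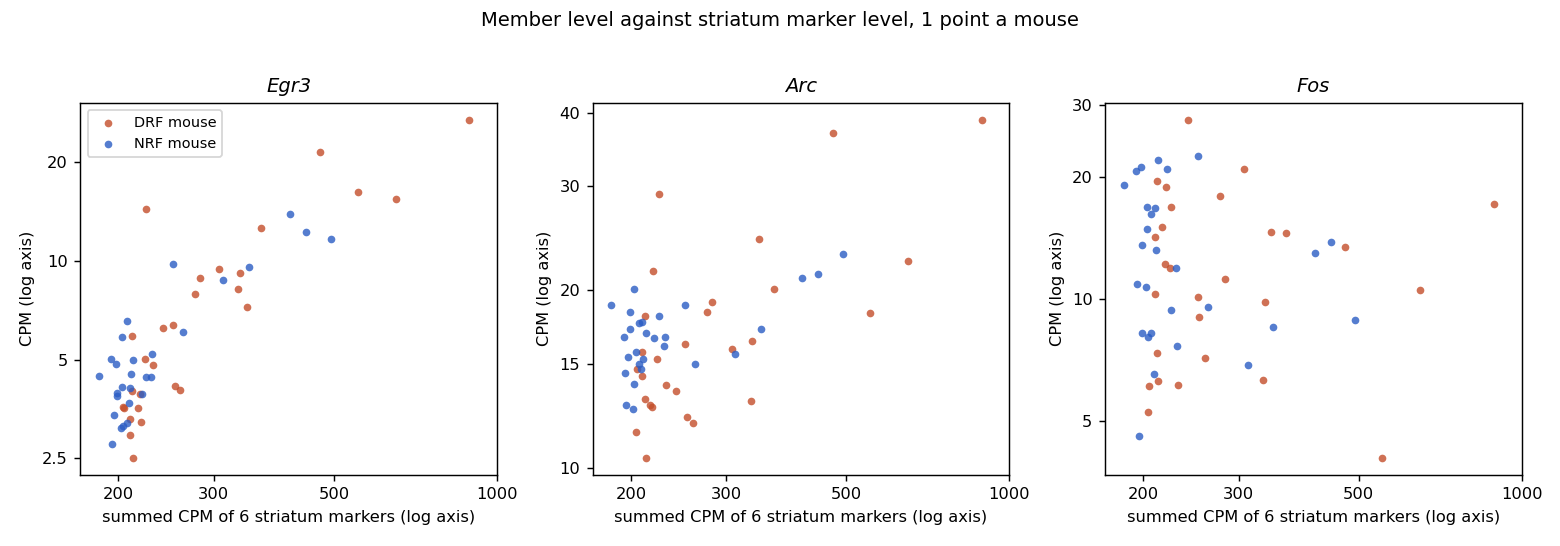
Level of Egr3, Arc and Fos in CPM (vertical, log axis) against the summed CPM of 6 striatum markers (horizontal, log axis) in 56 mice, with DRF in orange and NRF in blue. Egr3 rises with the markers along the whole range, up to the mouse with 889 CPM of markers and 27.0 CPM of Egr3, and Fos does not.

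Markers of other tissues moved with some of the genes too. Homer1 was lower in mice with more of the 14 anterior hypothalamic markers (r = -0.65, rho = -0.59, adjusted permutation p = 0.003) and higher with the neuron markers (r = 0.64). Arc was higher with markers of the cortex (r = 0.54), which summed to 100 to 172 CPM, and of oligodendrocytes (r = 0.64). Egr3 and Arc were lower with markers of the lateral and posterior hypothalamus (r = -0.69 and -0.63), which summed to 109 to 1129 CPM. Egr3 and Arc were higher with markers of microglia (r = 0.58 each), which summed to 159 to 240 CPM, and Homer1 with those of astrocytes (r = 0.55) and endothelium (r = 0.49). No gene was called with markers of the thalamus (323 to 705 CPM), ependyma and choroid plexus (33.7 to 68.1), blood (78.9 to 982) or pituitary (8.5 to 23.9). In all, 20 of the 130 relations between a gene and a marker list passed by Pearson's r, and none of them was with Fos, Fosb, Egr2 or Nr4a1.

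Likeness was read among 13962 genes, and only genes outside the 10 are named. Most like the mean of the 10 in their deviations were Plk2 (r = 0.80 over 56 mice), Egr4 (0.78), Zfp180 (0.76), Gas7 (0.76), Spata2l (0.74), Pdzd2 (0.74), Dusp1 (0.73), Drd3 (0.73), Sh3pxd2a (0.73) and Sipa1l1 (0.72). Closest to Fos were Sik1 (0.84), a salt-inducible kinase, Fosl2 (0.73), another Fos relative, and Dusp1 (0.73), a phosphatase of MAP kinases. Closest to Egr3 were Ddn (0.96), Ankrd63 (0.95) and Rin1 (0.95), and closest to Arc Lzts1 (0.86), Egr4 (0.85) and Kcnip2 (0.83). Closest to Homer1 were Celf2 (0.89), Hapln1 (0.88) and Cyria (0.88). Npas4 had no gene as close, the first 3 being Erf (0.59), Celf5 (0.58) and Tmem121b (0.57). Closest to Junb were Dusp1 (0.74), Nab2 (0.74) and Plk2 (0.73), and closest to Nr4a1 Sh3pxd2a (0.76), Dusp1 (0.76) and Sik1 (0.75). For Egr1 they were Sik1 (0.72), Dusp1 (0.72) and Sh3pxd2a (0.69). For Fosb they were Sh3pxd2a (0.68), Dusp1 (0.64) and Fosl2 (0.64), and for Egr2 Fosl2 (0.62), Hspa14 (0.61) and Mxd1 (0.6). These values are descriptions over mice that share their dissection and libraries.

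Other activity-regulated genes were read from fixed lists. Of 24 other early transcription factors, 7 were called for dark against light, 6 of them higher in the dark. The largest differences were those of Fosl2 (0.26 ± 0.08 log2 units, adjusted p = 0.014) and Cebpd (0.24 ± 0.06, adjusted p = 0.005), followed by Klf4, Nfil3, Maff and Jun, while Jund was lower (-0.15 ± 0.06, adjusted p = 0.047). This was 29.2% of the list beside 17.9% of all genes, and its median difference was 0.11, beside -0.01 over all genes. Of 25 genes of early feedback and signalling, 5 were called and all were higher in the dark, namely Sgk1 (0.55 ± 0.14), a kinase induced by glucocorticoids, Spry4 (0.28 ± 0.05), Dusp6 (0.22 ± 0.06), Dusp1 (0.19 ± 0.06) and Errfi1 (0.17 ± 0.04). Of 15 later effectors, 3 were called, with Cdkn1a (0.47 ± 0.08) and Inhba (0.21 ± 0.06) higher and Pdyn, the prodynorphin gene, lower (-0.24 ± 0.08). Without the 2 libraries 12 of the 24, 7 of the 25 and 5 of the 15 were called for dark against light, beside 30.3% of all genes.

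Between DRF and NRF few of these genes were called. At ZT0 it was Per1, a clock gene that is also induced early (0.43 ± 0.10, adjusted p = 0.007), at ZT4 Spry4 (0.40 ± 0.09), and at ZT12 Sgk1 (-1.03 ± 0.28, adjusted p = 0.044) and Nrn1 (-0.66 ± 0.17, adjusted p = 0.035). At ZT16, where the 2 libraries that stand apart belong to DRF, 3 transcription factors, 1 feedback gene and 4 effectors were called, beside 19.9% of all genes. Without those libraries 0, 0 and 1 were called, the last being Inhba, beside 0.204% of all genes. Over all times Per1 was higher in DRF (0.14 ± 0.04, adjusted p = 0.014) and Klf6 (-0.12 ± 0.04, adjusted p = 0.042) and Nrn1 (-0.24 ± 0.06, adjusted p = 0.012) were lower, which was 2 of 24 transcription factors, 0 of 25 feedback genes and 1 of 15 effectors beside 10.4% of all genes. For food access 0 transcription factors, 2 feedback genes and 2 effectors were called, beside 10.2% of all genes, with Dusp6 (0.21 ± 0.06) and Syt4 (0.16 ± 0.05) higher and Gadd45g (-0.15 ± 0.05) and Plat (-0.14 ± 0.04) lower. Without the 2 libraries Plat alone was called, beside 3.64% of all genes. Time of day in NRF called 13 of the 24 transcription factors, 7 of the 25 feedback genes and 5 of the 15 effectors, beside 29.6% of all genes. In DRF it called 6, 4 and 4, beside 32.4%, and 6, 3 and 4 without the 2 libraries, beside 14.8%. Of 20 upstream kinases and activators, 4 were called between DRF and NRF over all times, all higher in DRF, beside 10.4% of all genes, and 5 for dark against light, beside 17.9%. Of 4 related genes (Homer2, Homer3, Nab1 and Nab2), 0 were called in either of these 2 comparisons. Nab1 was called in others. It was lower in DRF at ZT16 (-0.40), beside 19.9% of all genes, and 0 of the 4 were called there without the 2 libraries. Nab1 was higher with food access (0.19), beside 10.2% of all genes, and in the dark in NRF (0.28), beside 26.3%.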

How the data were processed

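RNA was sequenced from the anterior hypothalamus of 56 mice. Per the submitters' processing notes and the study's methods, the authors mapped reads to GRCm38.p6 (mm10) with HISAT2, used Bowtie2 for alignment to coding genes, quantified them with RSEM and normalized them by TMM in edgeR. The deposited table holds 1 score per gene and mouse. The authors named it TPM, but each score is proportional to log2(CPM + 1) over the length of the gene, and the scores of a mouse add up to 999333 to 999720. Steps between low values gave the library sizes (1227 genes, median relative deviation 2e-08), and log2(CPM + 1) and CPM were recovered from them. Of 17564 genes, 15275 resolved into whole reads and 1608 into hundredths of a read, within 0.1 read or less. Counts as such were not used here, and the depth stated here is the normalized library size.

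The filter kept 16245 genes whose deposited score reached 1 in 80% or more of the mice, and the 16194 of them with a usable length were tested. The main test was limma 3.58.1 in R 4.3.3 on log2(CPM + 1), with all 14 groups sharing 1 spread and Benjamini-Hochberg adjustment over all genes within each comparison. All SE and adjusted p-values of differences come from it, at a threshold of 0.05. Differences on this scale understate those of low genes. Rhythm was tested on the deposited scores by JTK_CYCLE and Lomb-Scargle p-values combined by Fisher's method, and by a 24-h cosine in limma. Correlations used deviations from group means and permutations (scipy 1.17.1, numpy 2.4.6, Python 3.11.15). The procedures were tested on simulated data. Alternatives were another pseudocount, no filter, the deposited scores, array weights, removal of each library's trends with GC content and length, the replicate block, and leaving out the mice of each replicate number. The table held 0 columns of other samples.

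The 10 genes and all lists were chosen with earlier results of these data known. Every one of the 10 is described. From the lists of early and later activity-regulated genes, those with an adjusted p under 0.05 were eligible to be named, up to 20 per comparison, and likeness names the 10 genes with the highest r to the mean of the 10 and the first 3 per gene. Marker lists covered neurons, the anterior hypothalamus, cortex, striatum, thalamus, lateral and posterior hypothalamus, glia, vessels, ependyma, blood and pituitary. Of the marker genes, 1 is not reported here and was left out of its list.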

Additional observations from a re-analysis of the deposited data

Results flagged for a closer look

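In 140 combinations of a gene and a group of 4 mice, 5 had 1 mouse far from the other 3 by Dixon's ratio, which chance gives in about 1 of 20 groups. All 5 were in NRF. Junb was 9.8 CPM in NRF ZT8 replicate 1 against 19.4 to 21.9 CPM in the other mice. Egr3 was 8.73 CPM in NRF ZT4 replicate 1 against 3.69 to 3.95 CPM, and 11.7 CPM in NRF ZT8 replicate 2 against 3.4 to 4.1 CPM. Nr4a1 was 14 CPM in NRF ZT16 replicate 1 against 19.6 to 20.3 CPM. Npas4 was 19.2 CPM in NRF ZT8 replicate 2 against 16.1 to 16.5 CPM.

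Npas4, whose values are uncertain as described above, also differed between the regimens in how it moved. Its time course differed (regimen by time, adjusted p = 0.023), its fitted cosine differed (adjusted p = 0.019), and its change from light to dark differed, which is the contrast of food access against none (adjusted p = 0.031), all by limma.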

How the results depend on the processing

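No called difference of the 10 genes reversed its direction. Of the called differences of the other listed genes, 2 did, both at ZT16 (Syt4 without the 2 DRF ZT16 libraries, and Creb1 without them and under array weights). For the 10 genes, DRF against NRF over all times gave 0 calls under all 15 alternatives and the spread between mice 0 under all 10. Pairs moving together numbered 27 to 39 (38 as reported). Call counts of the 10 genes moved as follows, and the cause was not tested. For single time points (1 call), the deposited scores, array weights, removed library trends, removed trends with the replicate block, and leaving out the 2 DRF ZT16 libraries gave 0, the striatum covariate gave 2 (Egr3 and Homer1), and leaving out 1 replicate number gave 0 to 2. Fitting only the 8 mice of a time point also gave 1 call, but of Arc at ZT0 in place of Homer1 at ZT16. For time of day in NRF (1), array weights gave 3, the replicate block 4 (Fos, Junb, Egr1 and Npas4) without and 4 with trends removed, the striatum covariate 2, and leaving out a number 0 to 3. For time of day in DRF (2), the deposited scores and no filter gave 1 (Homer1), array weights and removed trends 1 (Npas4), leaving out the 2 libraries 0, the replicate block 4 (Fos, Junb, Nr4a1 and Homer1, with F = 7.61 and adjusted p = 4.0e-04 for Fos), the block with trends removed 5, the striatum covariate 5, and leaving out a number 0 to 5. For dark against light (1), array weights gave 2 (Npas4 and Homer1, with Fos at an adjusted p of 0.055), the replicate block with trends removed and the striatum covariate 2 (Fos and Fosb), leaving out the 2 libraries 1 (Npas4 in place of Fos), and leaving out a number 0 to 2. For food access (1), array weights, removed trends, removed trends with the replicate block and leaving out the 2 libraries gave 0, and leaving out a number 0 to 1. Leaving out a number gave 0 to 2 for regimen by time (1) and 0 to 0 for the rhythm difference (1), which the striatum covariate moved to 2. For rhythm (0 in both regimens), the cosine gave 1 in NRF with and without the replicate block, and 1 in DRF (Fos) with the replicate block. The replicate block gave Fos in the dark an adjusted p of 3.9e-04, moved the pairs moving together to 36 and changed no other count of the 10 genes. Over all genes the numbers were not shown to pair mice. The deviations of 28 same-numbered DRF and NRF pairs correlated at r of -0.52 to 0.25, with 6 over 0.1. Among mice of other groups, 19 of 56 mice were closest to one of their own number, with 4 numbers in use. These values are taken over all genes tested. They cannot show whether the number marks a difference in a few genes, such as Fos and Egr1.

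Counts over all genes also moved by more than 1.5 times under some alternatives. They were 3227 (0 to 4951) at ZT16, 717 (107 to 1880) at ZT0, 631 (59 to 1720) at ZT4, 28 (0 to 1627) at ZT8, 241 (0 to 829) at ZT12, 184 (5 to 895) at ZT20 and 46 (6 to 332) at ZT24. They were 1689 (388 to 2713) for DRF against NRF over all times, 2900 (1232 to 5444) for dark against light, 536 (162 to 948) in DRF and 4259 (2415 to 6300) in NRF, and 1655 (186 to 2314) for food access. They were 5246 (763 to 6239) for time in DRF, 4801 (1832 to 8797) for time in NRF, 2108 (311 to 4123) for regimen by time, 1763 (428 to 2847) for the rhythm difference, 652 (164 to 1720) and 4484 (2438 to 7473) for the cosine in DRF and NRF, and 12 (0 to 57) for the spread. The 2 libraries, the striatum covariate and the fits that join trends with the block were chosen after the data had been seen. Fosb and Egr2 rest on as few as 45 and 39.4 reads per mouse, and the share of counting error in the spread was not measured.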

Other observations

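A term for the replicate number, added after the values had been seen, was called by limma for 4 of 16194 genes (0.0247%), and 2 of them were Fos (adjusted p = 2.9e-05) and Egr1 (adjusted p = 0.012). The others were Sik1 (adjusted p = 0.002) and Ern1 (adjusted p = 0.020). For Fos the mean deviation of mice numbered 1 from their group means was -0.57 log2 units over 14 groups, and they were the lowest mouse in 12 of 14 groups. The mean deviations of mice numbered 2, 3 and 4 were -0.05, 0.22 and 0.40. For Egr1 the mean deviations were -0.48, 0.01, 0.15 and 0.31 for numbers 1 to 4, and number 1 was lowest in 10 of 14 groups. Junb (-0.29) and Nr4a1 (-0.27) were also below their group means in mice numbered 1. With library trends removed, 5 of 15874 genes were called and 4 of them were Fos, Junb, Egr1 and Nr4a1. The labels do not say what the number marks. With the number taken out, r over mice was 0.64 for Fos and Egr1, 0.64 for Fos and Junb, 0.59 for Fos and Nr4a1 and 0.17 for Fos and Egr3.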
